A study of Homo sapiens with 8 samples.

Results

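The p53 target genes are 36 human genes whose transcription p53 is known to activate, taken as a list of gene symbols and matched through Ensembl identifiers to the RNAseq tables of HEK293T cells. Of the 36, 35 are among the 19118 genes of the deposited normalized table. The remaining gene, TNFRSF10A, had 37 reads in all 8 libraries together and was not tested. HEK293T is an established line from human embryonic kidney into which SV40 large T was introduced, and every library comes from it. The cells of 4 libraries were treated with 100 µM DZNep (3-deazaneplanocin A, an adenosine analog that inhibits the hydrolase AHCY) for 48 h, and those of the 4 Control libraries received vehicle for the same time. The comparison asks how these genes differed in transcript level between the treated and the vehicle-treated cells.

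In response to DNA damage and other stress, p53 is stabilised, binds pairs of decamers near its targets and raises the transcription of genes that arrest the cell cycle, repair DNA, trigger apoptosis and feed back on p53 through MDM2. SV40 large T binds the DNA-binding domain of p53 and the RB family proteins. Cells that express large T are known to hold much p53 protein in this complex, and many p53 target genes are still transcribed at a basal level. The large T transcript was not analysed here, and protein was not measured in these libraries.

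Promoter windows from 250 bases before to 50 bases after a RefSeq transcription start (GRCh38.p14) were found for 28 of the 36 genes. The windows were searched on both strands for the p53 consensus decamer and for a pair of decamers with a spacer of up to 13 bases and at most 2 mismatches. A pair was found for 6 of the 28 genes (21.4%), against 3.62% of 27305 genes with a window. An exact decamer was also found for 6 (21.4%), against 8.06%. The 8 genes with either are shown because p53 binds pairs of decamers near its targets. Capitals mark the matched site, and each line runs 5′ to 3′ on the strand of the gene.

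MDM2 (chr12:68808898-68808967, plus strand, pair without spacer): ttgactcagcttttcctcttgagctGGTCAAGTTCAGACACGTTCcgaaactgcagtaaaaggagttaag
TP73 (chr1:3690571-3690640, plus strand, pair without spacer): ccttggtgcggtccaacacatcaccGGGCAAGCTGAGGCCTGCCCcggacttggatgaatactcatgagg
FAS (chr10:88991284-88991353, plus strand, pair without spacer): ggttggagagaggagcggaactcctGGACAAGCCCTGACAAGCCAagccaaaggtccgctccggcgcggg
AEN (chr15:88621281-88621339, plus strand, pair without spacer): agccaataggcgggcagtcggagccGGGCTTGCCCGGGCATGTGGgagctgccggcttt
DDB2 (chr11:47214979-47214999, plus strand, pair with a spacer): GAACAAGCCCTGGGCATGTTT
FDXR (chr17:74872995-74873050, minus strand, pair with a spacer): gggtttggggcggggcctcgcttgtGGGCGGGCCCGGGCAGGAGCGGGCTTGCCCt
PLK2 (chr5:58460184-58460243, minus strand, single decamer): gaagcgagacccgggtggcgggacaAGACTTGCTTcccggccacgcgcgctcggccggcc
SESN1 (chr6:109009003-109009062, minus strand, single decamer): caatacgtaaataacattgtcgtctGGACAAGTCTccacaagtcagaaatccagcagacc

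The DDB2 pair matched the consensus with 0 mismatches and a spacer of 1 base, and lay 6 to 26 bases into the annotated transcript. The MDM2 pair began 94 bases before an internal start and lies in an intron of MDM2 in GENCODE. The TP73 pair began 76 bases before an internal start and also lies in an intron of its gene, as does the SESN1 decamer. The FAS pair overlapped annotated exons of FAS and of ACTA2 on the opposite strand, the FDXR pair overlapped an exon of FDXR, and the AEN and PLK2 sites overlapped no annotated gene. A match describes these letters only. The 8 genes include PLK2 and MDM2, which rose, TP73, which fell, and FAS, AEN, DDB2, FDXR and SESN1, which did not pass the test.

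The libraries held between 25043058 counts (Control replicate 1) and 44902779 counts, and mitochondrial transcripts took 3.02% to 13.7% of them. Markers of HEK293 cells were present in every library, with 8 of 8 at a mean of at least 100 normalized counts over the 8 libraries and sums of 31050 to 53873 in Control and 38673 to 48905 in DZNep, although KRT8 was higher in DZNep (361 to 2001) and LHX1 lower (507 to 192). Of 8 blood cell markers 0 reached that mean over the 8 libraries, and HBB was at 0 in all of them. Their sums were 180 to 345 in Control and 217 to 618 in DZNep. LYZ had 559 reads in DZNep replicate 2, against 17 to 25 in the other libraries, and CD14 averaged 102 in Control and 74.7 in DZNep. CD3D and CD3E were at 0 in Control and had 0, 1, 2 and 2 and 9, 21, 18 and 36 reads in DZNep. Liver and lung markers summed to at most 25.9. Fibroblast and endothelial markers summed to 3542 to 6649 in Control and 3829 to 7770 in DZNep, with 5 of 7 at that mean. Within that list VWF (2.81 to 103) and LUM (100.2 to 433) were higher in DZNep by both thresholds. The part of these markers in the results was not tested. DZNep replicate 2 stood apart, with 33 genes more than 4-fold below and 4 genes more than 4-fold above all other libraries, and 0 of these were p53 target genes. In bulk libraries such as these, fewer cells with a transcript and less of it per cell cannot be told apart. Normalized counts below are read counts divided by the size factor of the library, and intervals cover counting error only where they are given for summed counts.

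In edgeR's quasi-likelihood test, 7 of the 35 genes passed both thresholds, an adjusted p under 0.05 and a log2 fold change beyond 1 in either direction, which is 20% against 24.2% of all 19171 genes tested. TP53I3, GADD45B and TNFRSF10D were higher (10.6% of all genes were higher), and SPATA18, CCNG1, EDA2R and TP73 were lower (13.5% of all genes). By adjusted p alone, 16 of the 35 (45.7%) passed, against 40.8% of all genes, and only these are said below to have risen or fallen. MDM2, PLK2, CCNG2 and TRIAP1 joined the 3 genes above for 7 that rose (19.1% of all genes), and BAX, TP53I11, XPC, BTG2 and PHLDA3 joined the 4 for 9 that fell (21.8%). The members were thus found in both directions at shares close to those of all genes. With the replicate number as a block, 25 passed by adjusted p alone, 10 higher and 15 lower, against 59.0% of all genes (28.8% higher and 30.2% lower), and they included the 16. Leaving out Control replicate 1 or DZNep replicate 2 left 10, with 4 higher and 6 lower in each case, against 34.3% and 33.7% of all genes. Without DZNep replicate 3, 4 were higher and 9 lower.

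The median log2 fold change of the 35 genes was -0.16, with quartiles of -0.61 and 0.34 and a range from -2.86 to 1.48. The median over all genes tested was -0.03. Without regard to sign, the median size was 0.54 for the 35 genes and 0.54 for all genes. The DZNep libraries all lay above the Control libraries for 7 of the genes and all below them for 7, against 19.5% and 19.4% of all genes.

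**Figure D1:**
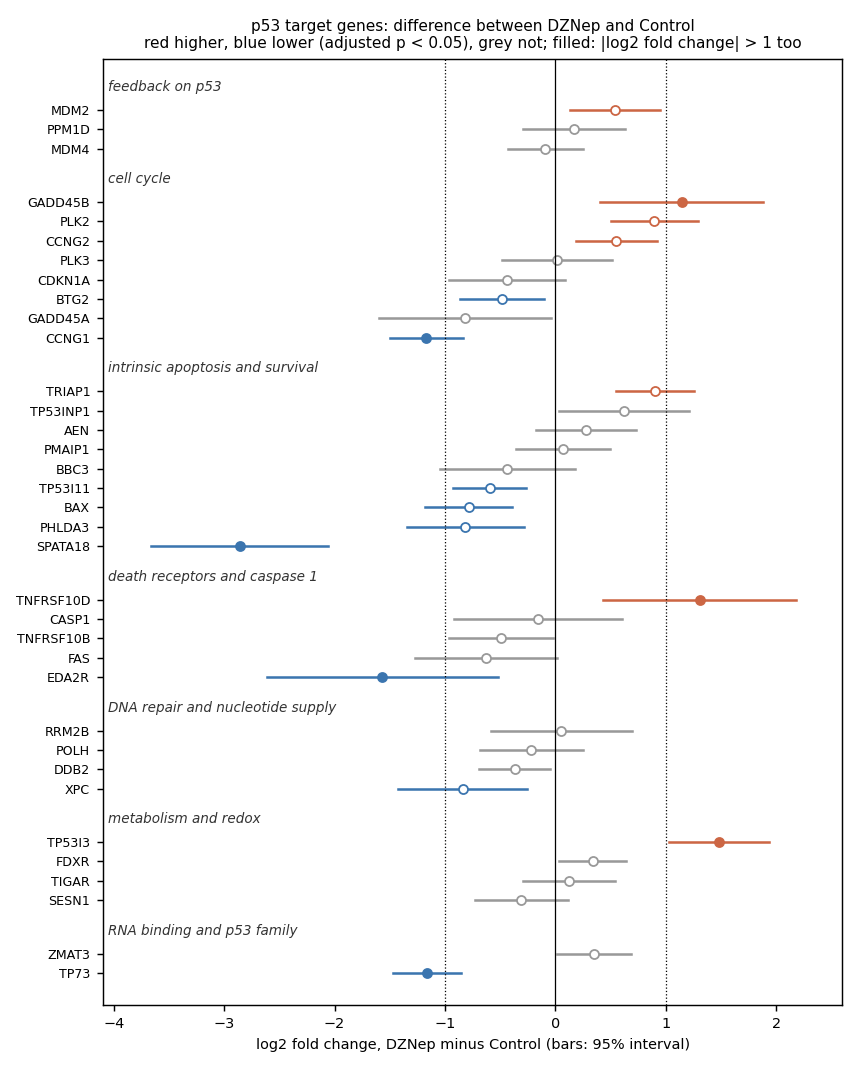
Log2 fold change (DZNep minus Control, x axis) of each of the 35 p53 target genes tested, grouped by role, with its 95% interval. Red marks genes that rose and blue genes that fell by adjusted p, filled points also passed the fold threshold, and grey points did not pass. The values run from -2.86 for SPATA18 to 1.48 for TP53I3, and both directions appear in the cell cycle, apoptosis and death receptor groups.

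**Figure D2:**
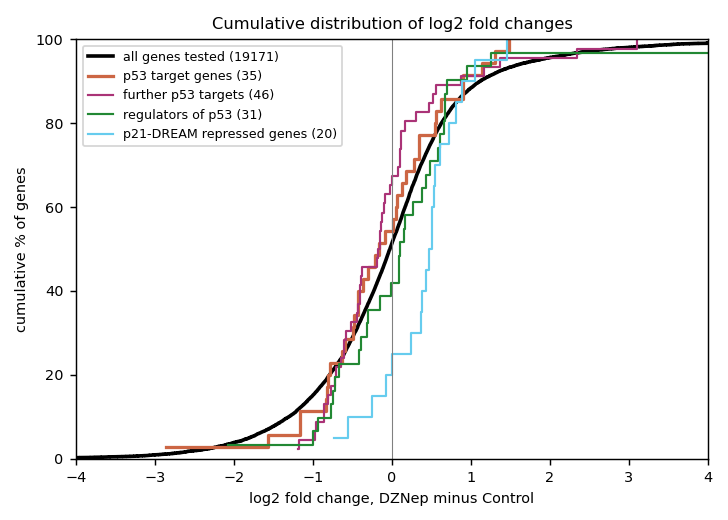
Cumulative percentage of genes (y axis) by log2 fold change (DZNep minus Control, x axis) for all 19171 genes tested, the 35 p53 target genes, 46 further p53 targets, 31 regulators of p53 and 20 genes repressed through p21 and DREAM. The medians of both sets of targets are -0.16 and -0.16 against -0.03 for all genes, and the upper part of the curve of the further targets lies to the left of that of all genes, with an upper quartile of 0.11 against 0.49. The medians are 0.10 for the regulators and 0.49 for the repressed genes, whose curve lies to the right.

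Per kb of the canonical transcript, the highest mean levels in Control were those of CCNG1 (7020 normalized counts per kb), BAX (4405) and PMAIP1 (4088), followed by GADD45A (1809) and TRIAP1 (1669). In DZNep the order on the same scale began with PMAIP1 (4366), CCNG1 (3183), TRIAP1 (3180) and BAX (2602). CCNG1 and TRIAP1 thus had nearly the same mean level in DZNep, while they were far apart in Control. The lowest level in both groups was that of TNFRSF10A (1.26 in Control and 2.17 in DZNep per kb). Next came CASP1 in Control (10.5 per kb, and 9.53 in DZNep) and SPATA18 in DZNep (5.88 per kb, and 42.4 in Control).

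**Figure D3:**
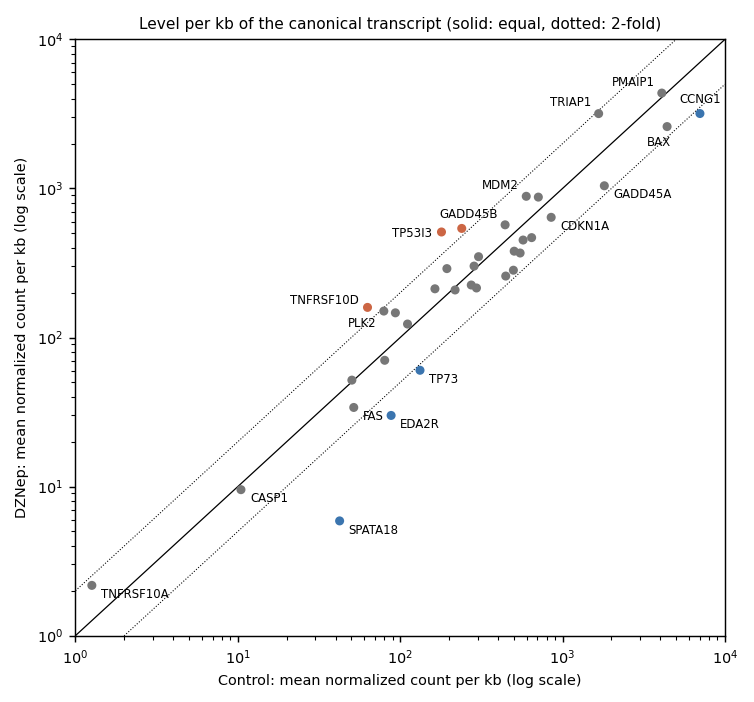
Mean normalized count per kb of the canonical transcript in Control (x axis) and DZNep (y axis), both on log scales, for the 36 p53 target genes. Red and blue points passed both thresholds upwards and downwards, the solid line marks equal levels and the dotted lines a 2-fold difference. SPATA18 lies farthest below the solid line, at 42.4 against 5.88, and TP53I3 lies farthest above it among the genes tested, at 180 against 511.

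Of the 3 genes that feed back on p53, 1 rose and 0 fell, against 19.1% and 21.8% of all genes. MDM2 (ENSG00000135679, chr12:68808177-68845544) encodes the ubiquitin ligase that marks p53 for degradation and is itself a direct target. It had 4545, 5250, 4905 and 3209 normalized counts in the Control libraries and 6942, 7590, 6587 and 5429 in the DZNep libraries. The groups did not overlap, and MDM2 rose from 4477 ± 893 to 6637 ± 906 (mean ± SD of 4 libraries). On the log2 scale the fold change was 0.54 ± 0.18 (SE), with an adjusted p of 0.0374 in edgeR's quasi-likelihood test. This call was lost without Control replicate 1, 3 or 4 or DZNep replicate 1, 2 or 3, with adjusted p-values of at least 0.0576, and held with the replicate block at 0.00061.

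MDM4, the MDM2 relative that masks the activation domain of p53, had 2391, 1642, 2386 and 2337 in Control and 2029, 2092, 2223 and 2036 in DZNep. The DZNep values lay inside the Control range, and the log2 fold change was -0.09, with an interval from -0.43 to 0.25 (adjusted p = 0.671). For PPM1D, the phosphatase WIP1 that reverses the phosphorylation of p53, the log2 fold change was 0.17 (adjusted p = 0.545).

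Of the 8 cell cycle genes, 3 rose (19.1% of all genes), 2 fell (21.8%) and 3 did not pass. CDKN1A (ENSG00000124762, chr6:36676460-36687337) encodes p21, the inhibitor of cyclin-dependent kinases that carries most of the arrest by p53. Its normalized counts were 1970, 1962, 2222 and 1054 in Control and 1568, 1461, 1397 and 996 in DZNep. DZNep was the lower library in 4 of 4 pairs of the same number, but the groups overlapped because Control replicate 4 was low. The log2 fold change was -0.44 ± 0.24 and did not pass (adjusted p = 0.168). With the replicate block the value was -0.41 and passed at an adjusted p of 0.0102, and it passed as well without Control replicate 4 (-0.63, 0.018).

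CCNG1 (ENSG00000113328, chr5:163437569-163446151) encodes cyclin G1, which recruits PP2A to MDM2. With the highest level per kb of the 36 genes in Control, it stood at 17052, 17100, 17624 and 16850 normalized counts there and at 8661, 6344, 7798 and 8314 in DZNep. The Control libraries differed by at most 1.05-fold and none overlapped with DZNep. The level fell 2.25-fold, from 17156 ± 330 to 7779 ± 1020, with a log2 fold change of -1.17 ± 0.15 (adjusted p = 0.000222). Its relative CCNG2, cyclin G2, which is also induced by FOXO factors, differed in the opposite direction. CCNG2 counted 876, 1207, 1176 and 985 in Control and 1571, 1661, 1830 and 1284 in DZNep, so that all DZNep libraries were higher. It rose with a log2 fold change of 0.55 ± 0.16 (adjusted p = 0.0215), a call lost without Control replicate 1 or DZNep replicate 1, 2 or 3 (adjusted p from 0.0516 to 0.0694).

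PLK2, a polo-like kinase of the stress response, had 188, 254, 192 and 250 in Control and 418, 490, 418 and 351 in DZNep. Its groups did not overlap, and PLK2 rose with a log2 fold change of 0.90 ± 0.18 (adjusted p = 0.00266), passing with each library left out. Its paralog PLK3 ranged from 78.6 to 153 in Control and from 111 to 129 in DZNep, with a log2 fold change of 0.02 (adjusted p = 0.960). BTG2, an antiproliferative cofactor of mRNA deadenylation, fell from 805 ± 129 to 587 ± 88.9, a log2 fold change of -0.48 (adjusted p = 0.046). This call did not hold without Control replicate 1, 2 or 3 or DZNep replicate 1, 2 or 4, with adjusted p-values from 0.0804 to 0.134.

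The GADD45 proteins bind p21, PCNA and stress kinases, and of the pair on the list only GADD45B passed. GADD45B had 358, 230, 211 and 514 in Control and 724, 478, 625 and 1132 in DZNep. DZNep was higher in 4 of 4 pairs, although DZNep replicate 2 lay below Control replicate 4. GADD45B rose 2.21-fold (log2 fold change 1.14 ± 0.33, adjusted p = 0.0197). It no longer passed both thresholds without Control replicate 3 (0.98, adjusted p = 0.0511) or DZNep replicate 4 (0.87, 0.0475). GADD45A counted 4304, 1044, 2584 and 1851 in Control and 1539, 1141, 1503 and 1456 in DZNep. The spread lay in Control, whose libraries differed by 4.12-fold, the widest range among the 35 genes tested, against 1.35-fold in DZNep. The log2 fold change of -0.82 ± 0.35 did not pass (adjusted p = 0.0882), but passed with the replicate block (-0.65, 0.00814) and without Control replicate 2 (-1.08, 0.00814).

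**Figure D4:**
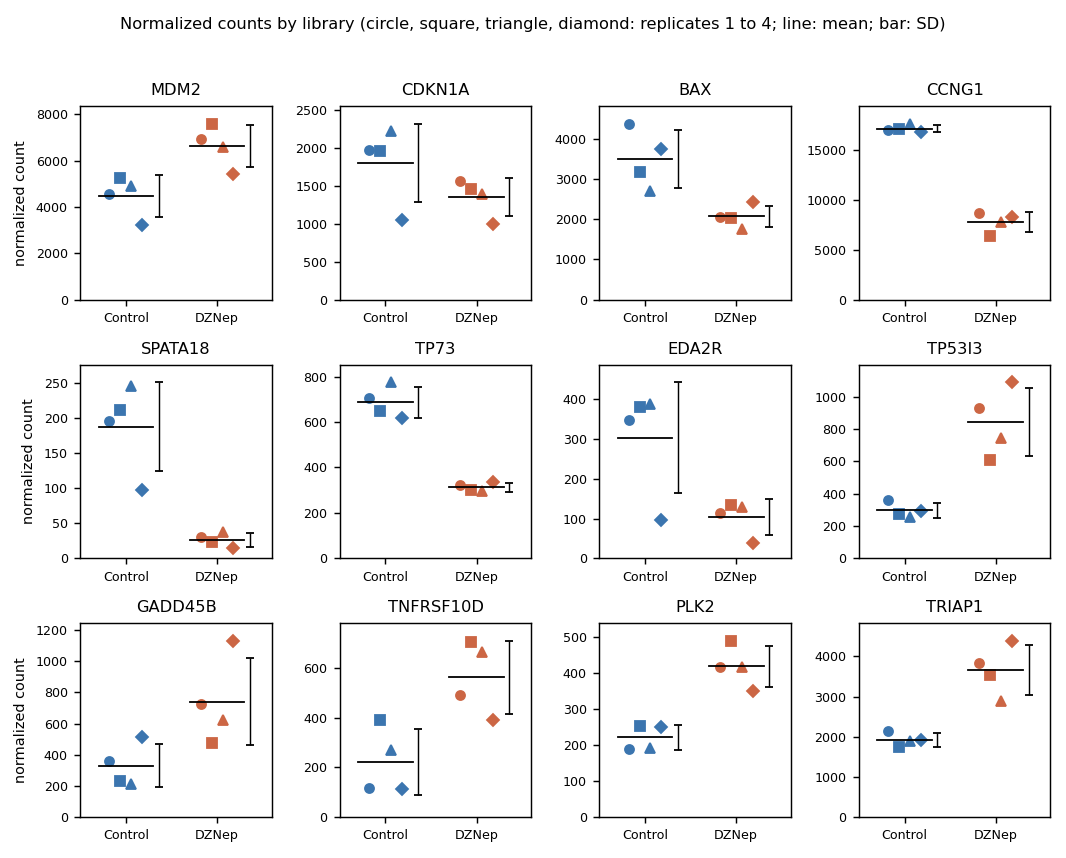
Normalized counts (y axis, linear from 0) of 12 p53 target genes in the 4 Control (blue) and 4 DZNep (red) libraries, with circles, squares, triangles and diamonds for replicates 1 to 4, a line at the mean and a bar for the SD. The groups are apart for MDM2, BAX, CCNG1, SPATA18, TP73, TP53I3, TNFRSF10D, PLK2 and TRIAP1, and overlap for CDKN1A, EDA2R and GADD45B.

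Of the 9 genes of intrinsic apoptosis and survival, 1 rose (19.1% of all genes), 4 fell (21.8%) and 4 did not pass. BAX, the effector that permeabilises the outer mitochondrial membrane, had 4372, 3178, 2704 and 3753 normalized counts in Control and 2052, 2026, 1770 and 2427 in DZNep. Every DZNep library was lower than every Control library. BAX fell 1.73-fold (log2 fold change -0.79 ± 0.18, adjusted p = 0.0054) and passed with each library left out.

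BBC3 and PMAIP1 encode the BH3-only proteins PUMA and NOXA. BBC3 counted 1333, 512, 715 and 1160 in Control and 698, 584, 699 and 821 in DZNep, so that the DZNep values lay inside the Control range. Its log2 fold change was -0.43 ± 0.28 (adjusted p = 0.238), and without Control replicate 2 it passed at -0.64 (0.0384). For PMAIP1 the values were 9533, 6031, 9109 and 6379 in Control and 9564, 7232, 8881 and 7491 in DZNep. The groups covered nearly the same range, and the log2 fold change was 0.07, with an interval from -0.36 to 0.50 (adjusted p = 0.802).

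SPATA18 (ENSG00000163071, chr4:52051304-52097299) encodes Mieap, a p53-induced protein of mitochondrial quality control. It had 196, 212, 245 and 97.8 normalized counts in Control and 29.9, 22.6, 37.1 and 14.6 in DZNep. The DZNep values stand on 13 to 43 reads a library, and the highest of them lay well under the lowest Control value. SPATA18 fell 7.25-fold, the largest difference among the 35 genes (log2 fold change -2.86 ± 0.36, adjusted p = 0.00021), and the fall ranged from -3.23 to -2.71 on the log2 scale over the 4 pairs of the same number.

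TRIAP1, a small mitochondrial protein that restrains apoptosis, differed from BAX in direction. It counted 2152, 1728, 1899 and 1904 in Control and 3826, 3541, 2885 and 4389 in DZNep, without overlap. TRIAP1 rose 1.87-fold (log2 fold change 0.90 ± 0.16, adjusted p = 0.00132), and without DZNep replicate 3 it also passed the fold threshold, at 1.01.

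PHLDA3, which blocks AKT at the membrane, had 1777, 801, 1019 and 1315 in Control and 758, 565, 719 and 800 in DZNep. The groups were adjacent, with the highest DZNep value just under the lowest Control value. PHLDA3 fell with a log2 fold change of -0.82 ± 0.24 (adjusted p = 0.0198), which was lost without Control replicate 1 (0.0523) or DZNep replicate 2 (0.0608). TP53I11 fell from 1832 ± 201 to 1234 ± 158 without overlap (log2 fold change -0.60, adjusted p = 0.00901). TP53INP1, a stress protein of autophagy that is shared with FOXO factors, stood at 524 ± 161 in Control and 821 ± 225 in DZNep, with DZNep higher in 4 of 4 pairs. Its log2 fold change of 0.62 ± 0.27 did not pass (adjusted p = 0.0866), but did so with the replicate block (0.00211) and without Control replicate 2 (0.0287) or DZNep replicate 4 (0.0201). For AEN, a nuclease of apoptosis, the log2 fold change was 0.28 (adjusted p = 0.303).

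Of the 6 genes of death receptors and caspase 1, 5 were tested, of which 1 rose and 1 fell, against 19.1% and 21.8% of all genes. TNFRSF10D encodes the decoy receptor DcR2, which binds the ligand TRAIL without passing on a full death signal. It had 117, 389, 271 and 112 normalized counts in Control and 493, 704, 664 and 390 in DZNep. The groups did not overlap, although DZNep replicate 4 was barely above Control replicate 2. TNFRSF10D rose 2.47-fold (log2 fold change 1.31 ± 0.39, adjusted p = 0.0223). Without Control replicate 1 the value was 1.09 (adjusted p = 0.0561), without DZNep replicate 2 it was 1.19 (0.0624) and without DZNep replicate 3 it was 1.22 (0.0611).

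The signalling receptor for the same ligand, TNFRSF10B (DR5), counted 2528, 2807, 3252 and 1730 in Control and 1651, 2194, 2149 and 1491 in DZNep. DZNep was lower in 4 of 4 pairs. The log2 fold change of -0.49 ± 0.21 did not pass (adjusted p = 0.0914), but passed with the replicate block (-0.47, 0.00256) and without Control replicate 4 (-0.65, 0.018). TNFRSF10A (DR4) was near the limit of detection, with 3, 3, 1 and 5 reads in Control and 7, 6, 5 and 7 in DZNep. Corrected for depth, DZNep was higher in 4 of 4 pairs of the same number. The ratio of the summed reads was 1.81, with an exact 95% interval from 0.877 to 3.96. The interval includes equal levels, so that no difference was established at this depth.

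EDA2R (ENSG00000131080, chrX:66595637-66639298), a receptor of ectodysplasin A2, had 348, 380, 390 and 96.7 in Control and 114, 134, 130 and 37.1 in DZNep. Replicate 4 was low in both groups, which made the groups overlap, while DZNep was lower in 4 of 4 pairs by between -1.61 and -1.38 on the log2 scale. EDA2R fell 2.96-fold (log2 fold change -1.57 ± 0.47, adjusted p = 0.0223). The call was lost without Control replicate 1 (-1.51, adjusted p = 0.0508), Control replicate 3 (-1.43, 0.0554) or DZNep replicate 1 (-1.60, 0.0544), and held with the replicate block.

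FAS, the receptor of the FAS ligand, counted 200, 280, 174 and 111 in Control and 138, 135, 144 and 84.4 in DZNep, again lower in 4 of 4 pairs. Its log2 fold change of -0.63 ± 0.29 did not pass (adjusted p = 0.109), but passed with the replicate block (0.0127) and without Control replicate 4 (0.0253). CASP1, the inflammatory caspase, ranged from 16.1 to 26.2 in Control and from 11.3 to 25.9 in DZNep, with a log2 fold change of -0.16 (adjusted p = 0.739).

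Of the 4 genes of DNA repair and nucleotide supply, 1 fell (21.8% of all genes) and 3 did not pass. XPC, the damage sensor of nucleotide excision repair, had 1539, 2523, 2042 and 1168 in Control and 1062, 1140, 1252 and 675 in DZNep. Only Control replicate 4 lay within the DZNep range. XPC fell with a log2 fold change of -0.84 ± 0.26 (adjusted p = 0.0261), a call lost without Control replicate 2 or 3 or DZNep replicate 1, 2 or 4 (adjusted p from 0.0518 to 0.0700) and at -1.01 without Control replicate 4. Exons of XPC-AS1 on the opposite strand overlap 24.6% of its exon bases, but that gene averaged 27.1 in Control and 17.3 in DZNep. The strandedness of the counting is not given in the sources used here, so reads in a shared stretch cannot be told apart.

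DDB2, which recognises ultraviolet damage together with DDB1, was lower in every DZNep library (677 to 884) than in any Control library (956 to 1172). Its log2 fold change of -0.37 ± 0.14 did not pass (adjusted p = 0.064), but passed with the replicate block (0.0166) and with DESeq2 (0.0465). POLH, the translesion polymerase eta, stood at -0.22 (adjusted p = 0.443) and RRM2B, the p53-induced subunit of ribonucleotide reductase, at 0.06 (0.896) in log2 fold change.

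Of the 4 genes of metabolism and redox, 1 rose (19.1% of all genes) and 3 did not pass. TP53I3 (ENSG00000115129, chr2:24077433-24085861), also known as PIG3, encodes a quinone oxidoreductase that produces reactive oxygen species. It counted 362, 276, 256 and 293 in Control and 932, 609, 746 and 1089 in DZNep. The lowest DZNep value was well above the highest Control value. TP53I3 rose 2.79-fold, from 297 ± 46.1 to 844 ± 210, the largest rise among the 35 genes (log2 fold change 1.48 ± 0.21, adjusted p = 0.000351).

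FDXR, the mitochondrial ferredoxin reductase, was higher in every DZNep library than in any Control library, at 1053 ± 97.2 against 818 ± 82.4. Its log2 fold change of 0.34 ± 0.14 did not pass (adjusted p = 0.0728), but passed with the replicate block (0.0336) and with DESeq2 (0.0238). SESN1, a sestrin that restrains mTORC1, was lower in DZNep in 4 of 4 pairs, with a log2 fold change of -0.31 that did not pass (adjusted p = 0.219) except with the replicate block (0.0363). TIGAR, a fructose bisphosphatase that slows glycolysis, stood at 0.12 (adjusted p = 0.632).

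TP73 (ENSG00000078900, chr1:3652516-3736201) encodes p73, a member of the p53 family that recognises the same sites. It had 706, 650, 775 and 620 normalized counts in Control and 325, 299, 295 and 334 in DZNep. The groups were far apart and the DZNep libraries differed by 1.13-fold only. TP73 fell 2.24-fold (log2 fold change -1.16 ± 0.14, adjusted p = 0.000156), and TP73-AS1, whose exons overlap 9.35% of its exon bases on the opposite strand, averaged 1222 in Control and 1191 in DZNep. ZMAT3, an RNA-binding protein of splicing and mRNA stability, stood at 1463 ± 125 in Control and 1897 ± 289 in DZNep. The log2 fold change of 0.35 ± 0.15 did not pass (adjusted p = 0.0903), but passed with the replicate block (0.0209), with DESeq2 (0.0439) and without DZNep replicate 4 (0.0331).

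TP63, which encodes the related p63, is on the list of p53 regulators. It had 0, 0, 1 and 3 reads in Control and 41, 48, 29 and 30 in DZNep. The ratio of the summed reads corrected for depth was 32.2, with an exact 95% interval from 12.3 to 120, and TP63 rose with an adjusted p of 0.000256. TP73 and TP63 thus differed in opposite directions, with TP63 reaching a mean of 33.7 ± 6.1 normalized counts in DZNep.

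The libraries of a group differed among themselves in a recurring way. Control replicate 4 was the lowest library of its group for 22 of the 35 genes and DZNep replicate 4 for 19. These libraries also had the highest share of mitochondrial transcripts in their groups, 13.7% and 10.1%. How many of all genes were lowest in them was not counted, so whether the pattern is particular to these genes was not tested. The highest over the lowest library had a median ratio of 1.72 in Control and 1.41 in DZNep over the 35 genes. CCNG1 had the narrowest range in Control (1.05-fold) and MDM4 in DZNep (1.1-fold), while GADD45A had the widest in Control and EDA2R in DZNep (3.60-fold).

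**Figure D5:**
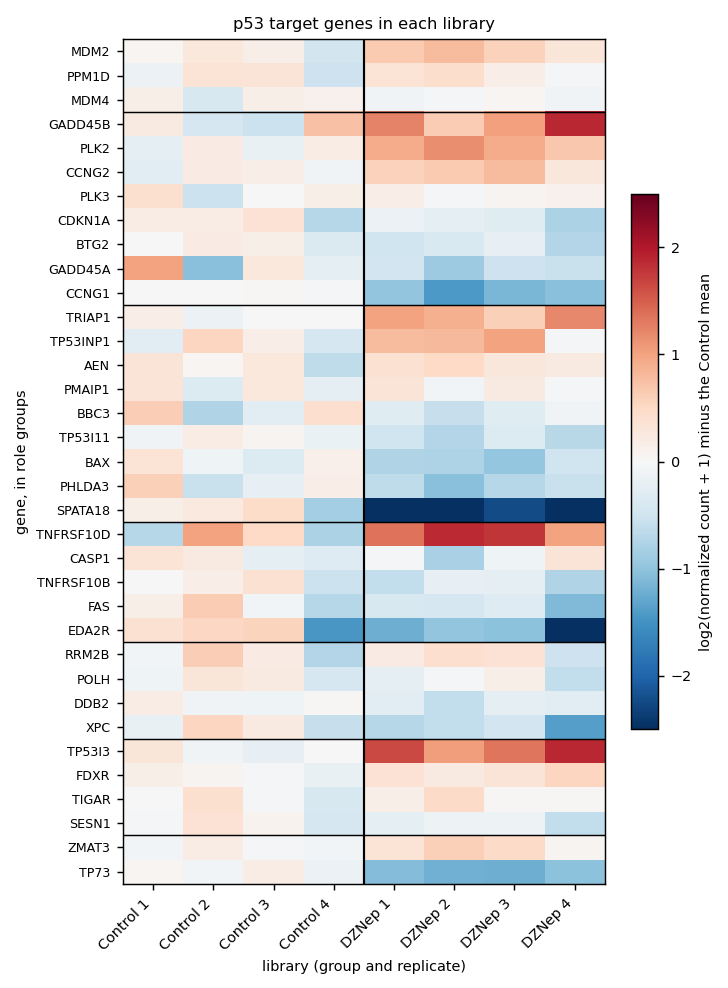
Log2(normalized count + 1) minus the Control mean of the gene (colour, limited at 2.5 in either direction) for the 35 p53 target genes tested (rows, grouped by role) in the 8 libraries (columns, Control left of the line). SPATA18, CCNG1 and TP73 are blue and TP53I3, TRIAP1 and PLK2 are red in all 4 DZNep libraries, and replicate 4 of both groups is lowest for many genes (22 in Control and 19 in DZNep).

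Some members are shared with other transcription factors. Of 6 genes that FOXO factors also induce, 1 rose (CCNG2) and 1 fell (BTG2), with a median log2 fold change of -0.37. Of 5 that ATF4 or CHOP also induce, 1 rose (GADD45B) and 0 fell, with a median of -0.43. In either set 4 genes did not pass, while 19.1% of all genes rose and 21.8% fell. With the replicate block, 2 rose and 3 fell of the first set and 1 rose and 2 fell of the second. The shares of all genes were then 28.8% and 30.2%.

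Among 31 regulators of p53 tested, 2 passed both thresholds upwards and 1 downwards (9.68% in all, against 24.2% of all genes). By adjusted p alone 9 rose and 7 fell, against 19.1% and 21.8% of all genes, and with the replicate block 13 rose and 9 fell, against 28.8% and 30.2%. The median log2 fold change was 0.10. Without DZNep replicate 1 or 3, 7 rose and 4 fell by adjusted p alone, against 31.4% and 33.4% of all genes in either direction. The downward calls by both thresholds were 2 without Control replicate 1, 2 or 3 or DZNep replicate 2 or 4. The upward calls were TP63 and CREBBP, an acetyltransferase that coactivates p53, at 1.25 (adjusted p = 0.00365). The downward call was ATR, the kinase of the replication stress response, at -2.07 (adjusted p = 0.000396).

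Of 48 further p53 targets outside the 36, 46 were tested, and 4 passed both thresholds upwards and 1 downwards (10.9% in all, against 24.2% of all genes). By adjusted p alone 6 rose and 9 fell, against 19.1% and 21.8%, and with the replicate block 9 rose and 14 fell, against 28.8% and 30.2%. Their median log2 fold change was -0.16 and the upper quartile 0.11, against 0.49 for all genes. SFN, the 14-3-3 sigma protein of the G2 checkpoint, had 17.0, 5.36, 6.27 and 11.8 normalized counts in Control and 78.0, 113, 54.4 and 95.6 in DZNep and rose by 3.10 on the log2 scale (adjusted p = 0.000255). SERTAD1, a regulator of cyclin D kinases and E2F, rose from 224 ± 75.4 to 1156 ± 340 (2.34, adjusted p = 0.000154), and TLR3, the receptor of double-stranded RNA, from 23.2 ± 5.82 to 61.8 ± 5.21 (1.37, 0.00218). ORAI3, a calcium channel subunit, fell from 262 ± 102 to 116 ± 26.4 (-1.19, 0.00981), or by 0.99 on the log2 scale without Control replicate 1. The number of downward calls was 3 without Control replicate 2 and 2 without Control replicate 3 or 4 or DZNep replicate 2, 3 or 4.

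Through p21 and the DREAM complex, p53 lowers the transcription of genes of the G2 and M phases. Of 20 such genes, 2 passed both thresholds upwards and 0 downwards (10% in all, against 24.2% of all genes). By adjusted p alone 9 rose and 2 fell, against 19.1% and 21.8% of all genes, and the median log2 fold change was 0.49. With the replicate block 14 rose and 2 fell, against 28.8% and 30.2%. Without DZNep replicate 2 only 6 rose and 1 fell, against 33.7% of all genes in either direction. The DZNep libraries all lay above the Control libraries for 13 of the 20 and below them for 2, against 19.5% and 19.4% of all genes. PLK1, the mitotic kinase, had 3482, 7063, 5583 and 4779 in Control and 15905, 14036, 14605 and 13949 in DZNep, and rose 2.75-fold (log2 fold change 1.46, adjusted p = 0.00043). FOXM1, which drives the transcription of G2 genes, rose from 3928 ± 1162 to 8306 ± 1337 (log2 fold change 1.05, adjusted p = 0.00451). Both passed the fold threshold, but FOXM1 did not without Control replicate 1 (0.95) or Control replicate 4 (0.90). CDKN1A, whose product acts upstream of this group, stood at -0.44 and did not pass.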

How the data were processed

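RNAseq of 8 HEK293T libraries was analysed, 4 DZNep and 4 Control, grouped by the treatment in the labels and numbered as replicates 1 to 4. The labels do not state separate cultures, so p-values measure the spread between these samples. Per the labels, the reads passed through Trimmomatic 0.36, STAR 2.5.2b (GRCh38) and featureCounts of Subread 1.5.2, and the authors deposited the raw counts of 57500 genes without normalization. The second table they deposited is a signal in normalized counts (counts divided by a size factor for each library) of the 19118 genes with at least 81 counts over the 8 libraries. Annotation release and strandedness are not given in the sources used here. Symbols were matched for 56410 identifiers, and coordinates and exon overlaps come from GENCODE (GRCh38), promoters from RefSeq.

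Counts of 19171 genes that passed filterByExpr were tested with edgeR 4.0.16 (R 4.3.3): TMM, quasi-likelihood test and Benjamini-Hochberg adjustment over all these genes, with an adjusted p under 0.05 and, for a call, an absolute log2 fold change over 1. The script was tested on simulated data. The members and all gene lists were chosen with earlier results of these data known. All members are named. Of the other lists, up to 3 called genes of largest fold change in each direction are named, and the result of 1 gene is not reported here. No test over a list was run.

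A Control and a DZNep library that share a replicate number departed from their group means together, with correlations of 0.136, 0.492, 0.429 and 0.673 for replicates 1 to 4. All 4 exceed 0.1, and of 24 possible pairings only 1, that by number, reached their mean of 0.433. The numbers were therefore taken to pair the libraries, but what libraries of the same number share was not tested. The methods describe no replicate term and the main test was fitted without it. Alternatives were the replicate block, DESeq2 1.42.0, limma 3.58.1 on log2(normalized count + 1), other normalizations and filters, no fold threshold, and leaving out each library. Depth was 25043058 to 44902779 counts per library.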

Additional observations from a re-analysis of the deposited data

Results flagged for a closer look

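In 6 of 88 groups of 4 libraries, taken over 44 named genes, 1 library lay far from the other 3 by Dixon's test, and chance gives about 1 in 20 groups. MDM4 had 1642 normalized counts in Control replicate 2, the lowest of its group, against up to 2391. ZMAT3 had 1649 in the same library, the highest of its group, against 1389 in the lowest. EDA2R had 96.7 in Control replicate 4, against up to 390. FAS had 84.4 in DZNep replicate 4, against up to 144, and FOXM1 had 6304 in that library, against up to 9067. DDB2 had 677 in DZNep replicate 2, against up to 884.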

How the results depend on the processing

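A p53 target gene under an alternative was compared with its main value 525 times, for direction and for a call by both thresholds together. In 505 comparisons both were kept, 8 lost a call, 3 gained one and 9 turned sign. All 20 of these came from leaving out a library. Changes by adjusted p alone are not in these counts. On that measure the replicate block gained 9 genes, and leaving out Control replicate 1 or DZNep replicate 2 lost 6 in each case. The sign turned for genes that did not pass the test, whose log2 fold changes over the 8 left-out libraries ran from -0.038 to 0.17 for PMAIP1, -0.15 to 0.28 for RRM2B, -0.14 to 0.15 for PLK3 and -0.33 to 0.034 for CASP1, turning for PMAIP1 (without Control replicate 2 or 4), RRM2B (Control replicate 1 or 4 or DZNep replicate 2 or 3), PLK3 (Control replicate 2 or 3) and CASP1 (DZNep replicate 2). Without the fold threshold, 3656 genes were higher and 4171 lower, with 7 and 9 p53 targets, 9 and 7 regulators, 9 lower further targets, and 9 higher and 2 lower DREAM genes. With at least 10 reads in every library, 1141 genes and 1 regulator were higher. Leaving out each library in turn gave 1 to 2 lower calls among the regulators, 1 to 3 lower calls among the further targets and 1 to 3 higher calls among the DREAM genes. With the replicate block, the p53 targets again had 3 higher and 4 lower calls, and beyond the adjusted p-values given with the genes it changed no call. By adjusted p alone, library sizes without further scaling lost MDM2 (0.060), TP53I11 (0.0547), XPC (0.0772) and BTG2 (0.182), and testing all genes with at least 1 read lost MDM2 (0.072), CCNG2 (0.0531) and BTG2 (0.128). BTG2 was also lost with limma (0.0619), median-ratio size factors (0.0548) and at least 10 reads in every library (0.055). The causes were not tested. Depth limits TNFRSF10A, with 37 reads in all.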
